A study of Arabidopsis thaliana with 9 samples.

Results

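The genotype labelled OXmiR400 was set against wild type (WT) in Arabidopsis thaliana seedlings that had all been given 100 µM cadmium for 6 h. The titles of all samples begin with the word Colombia, which is taken as a shared background and is not explained further in the labels. The comparison takes the 3 OXmiR400 libraries and the 3 WT libraries of 9 in the series. The other 3 libraries carry the label OXrPPR1, had the same cadmium treatment, and enter the text only where their values are set beside the first 2 genotypes or share the estimate of spread. By name, OXmiR400 overexpresses the microRNA miR400. The series' design text speaks of OXmiR400 lines in the plural while the sample titles carry a single code, so the number of independent lines is unclear, and the promoter of the transgene is not given in the sources used here. Untreated seedlings are not analysed here, so each difference is one between genotypes under the metal, and cannot be told apart from a difference that also exists without it. Of the 26973 genes in the deposited table, the 19955 with a mean of at least 1 FPKM (expression per length of exon and per size of library) in at least 1 of the 3 genotypes were tested. Whether the replicates of a genotype were grown separately is not stated in the labels, so the p-values measure only the spread between these libraries, which may be technical.

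miR400 is a plant microRNA made from a precursor inside an intron of a protein-coding gene. It guides the cleavage of transcripts for pentatricopeptide repeat (PPR) proteins, which bind and process RNA inside mitochondria and chloroplasts. Cadmium enters roots through transporters of nutrient metals, binds thiols such as glutathione and phytochelatins, and is known to disturb the balance of iron, sulfur and phosphate, so the genes for those nutrients, for detoxification and for the root barriers are of interest next to the named targets.

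The sequences below show how miR400 pairs with its named targets PPR1 and PPR2, and with a site in GUN1 found by the scan described below. GUN1 is not a named target. The sequences are given because the rise in the miR400 precursor and the response of transcripts that could pair with miR400 open the account. They are from RefSeq (TAIR10.1), written 5′ to 3′. In the mature microRNA, at chr1:11785947-11785967 on the plus strand, capitals mark the seed (bases 2 to 8). In the 3 sites, capitals mark bases that pair with miR400 and small letters mark G:U pairs or mismatches. All 3 sites lie in coding exons. The PPR1 (AT1G06580) site lies at chr1:2014950-2014970 on the minus strand, that of PPR2 (AT1G62720) at chr1:23228516-23228536 on the plus strand, and that of GUN1 (AT2G31400) at chr2:13389093-13389113 on the minus strand.
miR400 mature: uAUGAGAGuauuauaagucac
PPR1 site: GTGACTTATAATACTCTCATA
PPR2 site: GTGACTTATAATACTCTCATt
GUN1 site: GTGACTTATAATgCTCTtcTt

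MIR400 (AT1G32582, the miR400 precursor) was listed at 953, 684 and 629 FPKM in OXmiR400, against 0.194, 0.572 and 0 FPKM in WT, so the 6 libraries follow their labels. Its log2 fold change, like all those that follow, was taken after 1 FPKM was added to each value, so that changes of low genes come out too small. It was 9.24 ± 0.21 (SE, adjusted p = 1.15e-08 in limma), and that of its host gene AT1G32583 was 0.24 (adjusted p = 0.509 in limma). The PPR1 site pairs at 21 of 21 bases and the PPR2 site at 20 of 21. PPR1 measured 2.56, 2.102 and 1.34 FPKM in OXmiR400 and 2.4, 2.17 and 2.54 FPKM in WT, values that overlap, and PPR2 lay under the expression filter at 0.452, 0.516 and 0.434 FPKM against 0.780, 0.342 and 1.05 FPKM. To look past the named targets, the longest spliced transcript of 26511 genes was scanned for its best match to miR400, counting 1 for a mismatch and 0.5 for a G:U pair. At a score of at most 3 there were 27 genes, of which 24 have a product name of the PPR or related tetratricopeptide repeat type. The others were RPF2, NET2D and GUN1, of which RPF2 and GUN1 are known as PPR proteins although their product names do not say so. Of these 27, 24 were tested: none was called higher and 1 was called lower at an adjusted p under 0.05 in limma (of all genes tested, 0.215% and 0.356%), and 16 lay below 0 and 8 above, with a median log2 fold change of -0.08 where the median of all tested genes was -0.02.

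The 1 that fell was GUN1, a chloroplast PPR protein known for its role in signalling from plastids to the nucleus. It measured 40.7, 31.4 and 36.0 FPKM in OXmiR400, against 68.3, 61.1 and 64.5 FPKM in WT. The genotypes did not overlap, and the log2 fold change was -0.83 ± 0.11 (SE, adjusted p = 0.0209 in limma). Its site scores 3, with 17 bases paired, 2 G:U pairs and 2 mismatches. This score equals the cut of the scan, so a stricter cut would have left GUN1 out. The scan and its cut were not among the planned tests. Both a mismatch and a G:U pair lie within the seed, and the score does not weigh position. Whether the site is cleaved was not tested. The other 23 tested genes with such a site ranged from -0.30 to 0.33 on the log2 scale. A list of 217 tested genes whose product name marks them as PPR proteins leaves out GUN1. Of these 217, 3 were higher and 5 lower at unadjusted p under 0.05. Both shares were smaller than those among all tested genes, which were 6.71% higher and 9.19% lower. None of the 217 was called, and their median log2 fold change was -0.04.

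Across all genes, 43 were called higher and 71 lower in OXmiR400 (limma, adjusted p under 0.05, Benjamini-Hochberg), which is 0.571% of the genes tested, or 0.215% higher and 0.356% lower. Changes of at least 1 on the log2 scale were reached by 67 of the 114, 30 higher and 37 lower, and 104 of the 114 are protein-coding. At unadjusted p under 0.05 there were 1338 higher (6.71%) and 1834 lower (9.19%) genes. The 3 libraries of a genotype all lay on 1 side of the other 3 in each of the 114 called genes, and in 10.8% of all tested genes on the higher and 13.5% on the lower side. Most differences were small: 10.4% of tested genes moved by at least 0.5 and 1.82% by at least 1 in either direction on the log2 scale. The highest genes leaned upward: of 990 genes at 100 FPKM or more, 13.9% were higher and 6.46% lower at unadjusted p under 0.05, against 7.51% and 11.2% of genes between 20 and 100 FPKM.

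**Figure D1:**
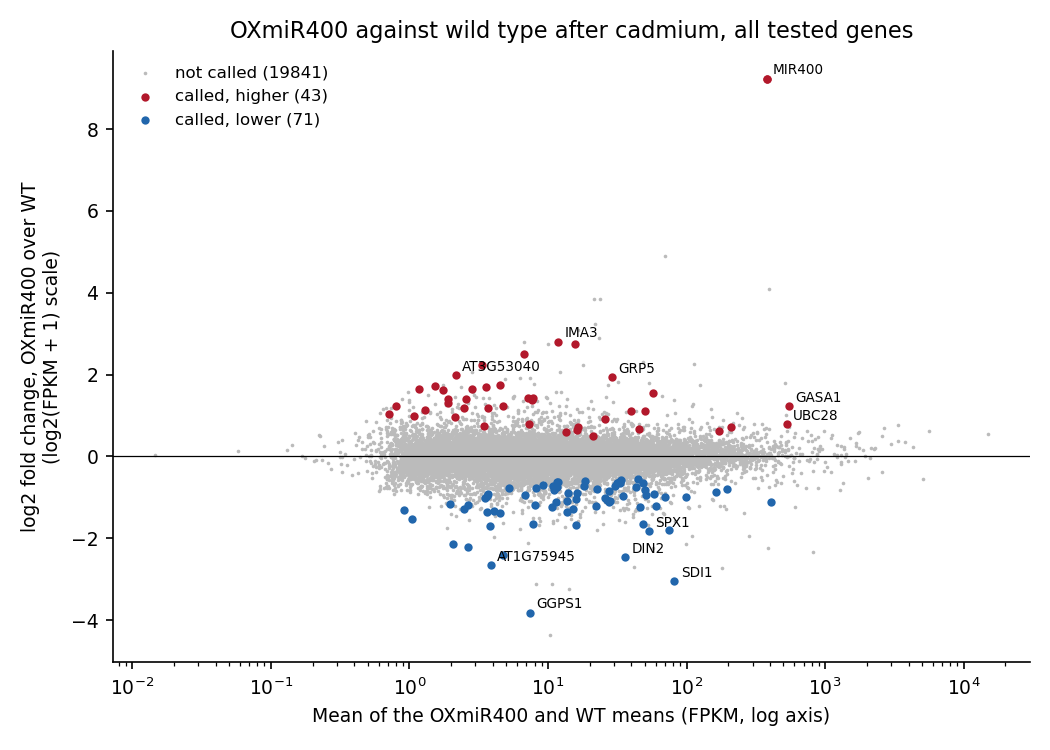
Every tested gene by its level (mean of the 2 genotype means in FPKM, log axis) and its log2 fold change, OXmiR400 over WT, on the log2(FPKM + 1) scale. The 43 genes called higher are red, the 71 called lower blue, and MIR400 stands alone at 9.24.

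The number of calls depended on single libraries. It was 9, 8 and 25 without OXmiR400 replicates 1, 2 and 3, 36 and 42 without WT replicates 1 and 3, 144 without WT replicate 2, and 128, 144 and 194 without OXrPPR1 replicates 1, 2 and 3. Over the 6 fits that each left out 1 OXmiR400 or WT library, 32 of the 114 were called in none, 47 in 1 and 6 in all, and no fold change turned its sign. Those called in all 6 were MIR400 (listed under 2 identifiers), AT3G02620, AT3G05170, AT3G23510 and AT4G20820. SULTR1;2, GSTU1, IMA3, OCT1, GASA1 and AT5G37490 were called in 4 of the 6. SPX1, SRG3, PPC3, FRO5, CYP86A1, GUN1, IMA2 and LSU2 were called in 1 (the highest adjusted p over all 17 alternatives was between 0.0841 and 0.146 in limma), and NAS4, FER1, UBC28, TGA9 and GRP5 in none (0.146 to 0.174). Sequencing depth, worked out from the smallest steps in the values, was 15.6 to 17.1 M units (reads or fragments) in OXmiR400 and 12.7 to 17.1 M units in WT. Libraries correlated across genes at r = 0.977 to 0.980 within OXmiR400 and 0.964 to 0.971 within WT, where genes are not independent replicates, and WT replicate 2 correlated more highly with OXrPPR1 replicate 1 (0.974) than with WT replicates 1 and 3 (0.964 and 0.970).

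Summed levels of organ markers differed between the genotypes and are given here beside the nutrient and barrier groups that follow. The summed level of 15 root markers was 103, 97.7 and 96.2 FPKM in OXmiR400 and 139, 122.8 and 164 FPKM in WT, without overlap. Of the 13 tested, 7 were lower at unadjusted p under 0.05, 11 lay below 0 and none was called, with a median log2 fold change of -0.65. The nitrate carrier NRT2.1, the root hair peroxidases PRX44 and PRX73 and the endodermal gene CASP1 lay lowest, at -0.84 to -1.21, while SCR and SHR, regulators of the root's inner cell layers, had log2 fold changes of 0.24 and 0.25. Leaf markers summed to 10415, 12650 and 11979 FPKM in OXmiR400 and 8460, 9770 and 10237 FPKM in WT, all 8 tested lay above 0 (median 0.24), and none was called. Storage protein and oil body markers of seeds summed to at most 0.631 FPKM in OXmiR400 and 1.95 FPKM in WT, and the floral gene AP1 was listed at 0 in all 6 libraries of the 2 genotypes. In whole seedlings fewer cells of a type and less RNA per cell cannot be told apart, and the part of the root and leaf shares in the results below was not tested.

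Gene lists with a large share of lower members were those for sulfur deficiency, phosphate supply, root suberin and the plastid and mitochondrial genomes. Lists with more than 20% higher members were iron deficiency, the circadian clock, organelle ribosomal proteins (2 of 8) and nuclear photosystem genes, of which the iron and clock lists also had 7 lower members each, of 32 and 35 tested. Lists are described by how many tested members passed at unadjusted p under 0.05, beside the 6.71% higher and 9.19% lower of all genes, because few members passed at an adjusted p. Members of a list share regulation and are not replicates. The lists and their members were chosen with earlier results of these data known. Their shares are therefore a description and not independent support.

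**Figure D2:**
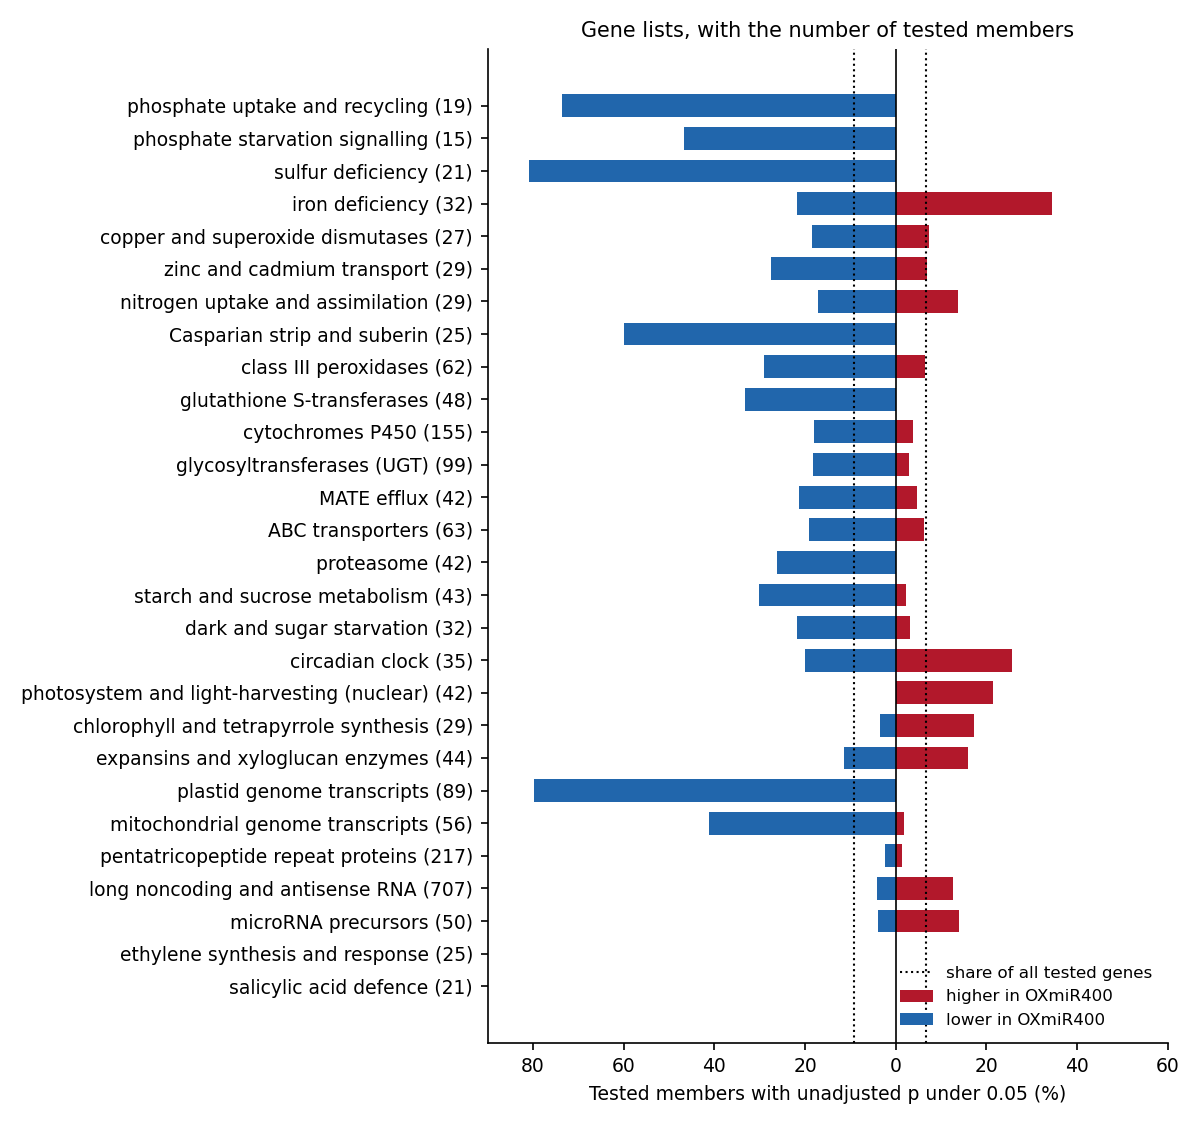
Share of tested members of each gene list (number in brackets) that were higher (red, to the right) or lower (blue, to the left) in OXmiR400 at unadjusted p under 0.05. Dotted lines mark the shares among all tested genes, 6.71% and 9.19%. Ethylene and salicylic acid genes show no bar because none of 25 and 21 members passed. The list of long noncoding and antisense RNA also counts 48 microRNA precursors and 51 small nucleolar and 104 other noncoding RNAs.

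Genes of the phosphate starvation response lay lower in OXmiR400 almost throughout. In plants short of phosphate, PHR1-type factors switch on high-affinity transporters, phosphatases and lipid-remodelling enzymes, and SPX proteins hold those factors back when phosphate is ample. Of the 40 genes in the lists for phosphate signalling and for phosphate uptake and recycling, 34 were tested: 21 were lower (61.8%) and none higher at unadjusted p under 0.05, 31 lay below 0, and the median log2 fold change was -0.70. Of the 34, 2 were called, SPX1 and SRG3, both lower, and 22 had libraries that did not overlap with OXmiR400 on the lower side.

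The promoters of SPX1 and SRG3, both called, are shown because each holds a match to P1BS, the element that PHR1-type factors bind (letters GNATATNC, searched on both strands, for which the motif reads the same). They run from 250 bases before to 50 after the gene start (RefSeq, TAIR10.1), with matches in capitals. SPX1 is at chr5:6802032-6802331 on the plus strand and SRG3 at chr3:349961-350260 on the minus strand.
SPX1 promoter: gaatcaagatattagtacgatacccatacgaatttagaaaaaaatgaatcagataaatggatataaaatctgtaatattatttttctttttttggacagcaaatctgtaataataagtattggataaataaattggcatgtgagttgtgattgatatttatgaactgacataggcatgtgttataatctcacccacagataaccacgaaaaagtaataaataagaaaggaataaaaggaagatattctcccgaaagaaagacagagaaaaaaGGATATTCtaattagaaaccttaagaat
SRG3 promoter: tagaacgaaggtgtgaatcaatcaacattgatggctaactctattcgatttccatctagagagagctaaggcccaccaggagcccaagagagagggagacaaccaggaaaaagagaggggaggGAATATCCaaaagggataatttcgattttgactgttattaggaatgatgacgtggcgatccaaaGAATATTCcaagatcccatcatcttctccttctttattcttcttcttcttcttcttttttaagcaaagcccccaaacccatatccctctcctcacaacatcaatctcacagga

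SPX1 (AT5G20150), a phosphate sensor that restrains PHR1, measured 24.6, 29.4 and 15.5 FPKM in OXmiR400, against 100.5, 87.1 and 62.5 FPKM in WT. Every OXmiR400 library lay under every WT library, and the gene fell by 1.82 ± 0.26 (log2, SE; adjusted p = 0.0250 in limma). SPX2 measured 16.7, 15.9 and 16.7 FPKM in OXmiR400 and 34.3, 28.7 and 23.2 FPKM in WT, and SPX3 0.512, 1.46 and 0.133 FPKM against 2.18, 5.76 and 1.21 FPKM. SPX2 was separated between the genotypes and SPX3 overlapped, and neither was called (adjusted p = 0.0717 and 0.238 in limma). AT4, a noncoding RNA that sequesters miR399, measured 192, 188 and 71.2 FPKM in OXmiR400 and 312, 367 and 416 FPKM in WT (adjusted p = 0.119 in limma). PHR1 itself, its relative PHL1, SIZ1 and NLA had log2 fold changes between -0.26 and 0.10, and PHO1, which loads phosphate into the xylem, had -0.27.

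SRG3 (AT3G02040, also GDPD1), which breaks down glycerophosphodiesters released from membrane lipids, measured 25.7, 40.8 and 41.9 FPKM in OXmiR400, against 96.4, 92.0 and 63.8 FPKM in WT. It fell by 1.21 ± 0.20 (log2, SE; adjusted p = 0.0394 in limma), again without overlap. The root transporters PHT1;1 and PHT1;4, which take up phosphate from soil, came close: PHT1;1 measured 21.4, 25.6 and 20.2 FPKM in OXmiR400 and 61.1, 51.5 and 43.1 FPKM in WT (adjusted p = 0.0521 in limma). PHT1;4 measured 10.14, 8.84 and 4.45 FPKM in OXmiR400 and 16.3, 29.4 and 29.0 FPKM in WT (adjusted p = 0.0651 in limma). Both transporters were lower in every OXmiR400 library. The pyrophosphatase gene PPsPase1, the purple acid phosphatases PAP17, PAP10 and PAP12, the lipid enzymes PLDP2, NPC4, MGD2 and MGD3 and the phosphatase PEPC1 were also lower at unadjusted p under 0.05, by 0.30 to 2.13 on the log2 scale. SQD1, SQD2, RNS1, PAP26 and PHT1;2 were not, and PAP26 was the only tested member of the uptake list above 0, at 0.17.

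Phosphoenolpyruvate carboxylase, the enzyme that fixes bicarbonate into organic acids and is raised in phosphate-starved plants, was lower in OXmiR400. PPC3 (AT3G14940), the root isoform, measured 23.56, 20.03 and 23.47 FPKM in OXmiR400, against 88.7, 47.5 and 90.2 FPKM in WT, and fell by 1.66 ± 0.23 (log2, SE; adjusted p = 0.0222 in limma). PPC1 (AT1G53310) fell by 0.65 ± 0.10, with 25.1, 24.6 and 23.2 FPKM in OXmiR400 and 39.0, 35.2 and 42.1 FPKM in WT (adjusted p = 0.0331 in limma). The kinases PPCK1 and PPCK2 had log2 fold changes of -0.82 and -0.93 and were not called (adjusted p = 0.0912 and 0.1003 in limma). PPC3 and PPC1 are in neither phosphate list and were found among the called genes.

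P1BS matches were found in the promoters of 12 of 19 tested uptake and recycling genes (63.2%), 4 of 15 signalling genes (26.7%) and 6 of 21 sulfur deficiency genes (28.6%), against 6.33% of 26512 promoters of the same length. Among called genes, 11 of 69 lower (15.9%) and 1 of 42 higher (2.38%) promoters held a match. In the uptake list the 14 lower members held it in 9 (64.3%), close to the share among all its tested members. The lower members held it in 3 of 7 in the signalling list, where 4 of all 15 did, and in 6 of 17 in the sulfur list, where 6 of all 21 did. Within the windows shown, the matches begin 22 bases after the start base in SPX1 and 127 and 63 before it in SRG3. In the sulfur list, the sulfur responsive core GAGAC was found in 7 of 21 promoters (33.3%), against 33.1% of all promoters. The copper response core GTAC was in 15 of 21 (71.4%), against 39.7% of all promoters. All of these are matches of letters and not shown to be bound.

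**Figure D3:**
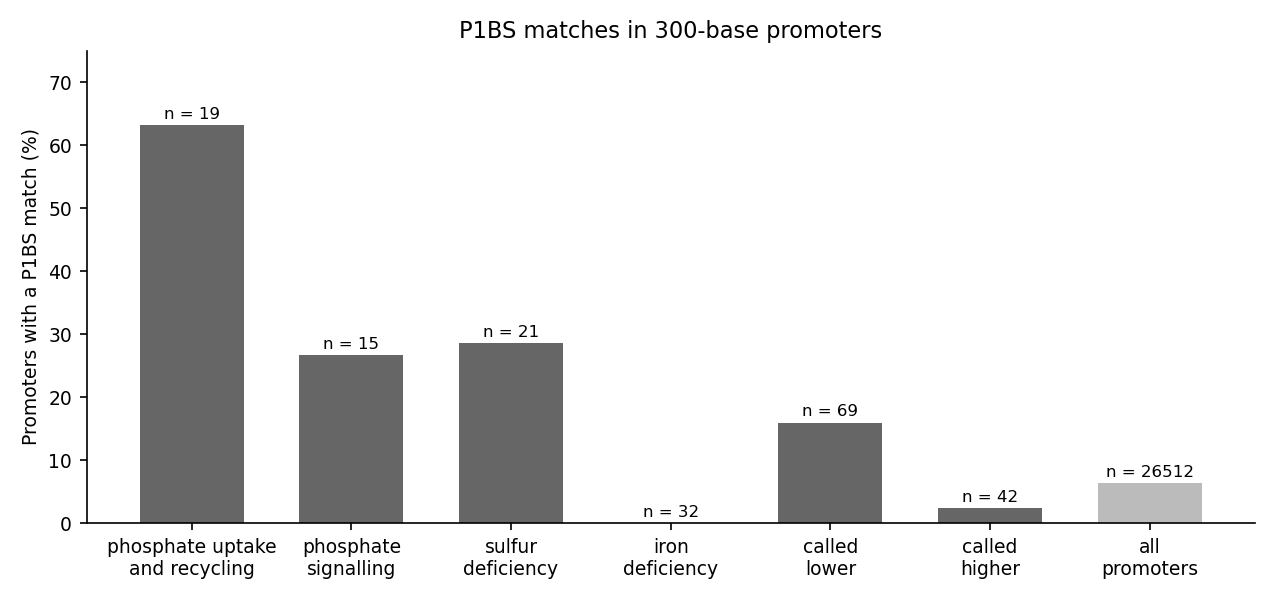
Percentage of promoters (250 bases before to 50 after the gene start) with at least 1 P1BS match, by gene group, with the number of promoters above each bar. The phosphate uptake list stands at 63.2%, all promoters at 6.33%, and the iron list at 0.

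Sulfur deficiency genes were lower in 17 of 21 tested (81.0%) and higher in none at unadjusted p under 0.05. These genes are switched on when sulfate or reduced sulfur is short, and cadmium raises the demand for both through glutathione and phytochelatins. Of the 21, 4 fell at adjusted p and the median log2 fold change was -1.05. WT replicate 2 was the lowest WT library in most of them: BGLU28, a glucosidase that releases sulfur from glucosinolates, measured 9.11, 8.39 and 9.26 FPKM in OXmiR400 and 72.3, 27.4 and 126 FPKM in WT. The OXmiR400 values were even and the WT values spread widely, and the gene was not called (adjusted p = 0.0541 in limma).

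Of the called members, SULTR1;2 (AT1G78000), the main sulfate uptake carrier of roots, had 25.2, 27.7 and 27.3 FPKM in OXmiR400, against 62.5, 54.9 and 78.2 FPKM in WT (log2 fold change -1.24 ± 0.15, SE, adjusted p = 0.0129 in limma). SDI1 (AT5G48850), which limits glucosinolate synthesis when sulfur is short, had 15.6, 17.2 and 12.9 FPKM in OXmiR400 and 162, 63.9 and 219 FPKM in WT. LSU2 had 38.0, 33.4 and 23.55 FPKM in OXmiR400 and 128, 67.6 and 159 FPKM in WT, and BGLU30 (AT3G60140, also DIN2) 8.87, 6.47 and 15.1 FPKM against 58.7, 34.9 and 92.9 FPKM. None of these pairs of groups overlapped. The vacuolar exporters SULTR4;1 and SULTR4;2, the second root carrier SULTR1;1, the xylem carrier SULTR2;1, SHM7, the glutathione-recycling enzyme GGCT2;1, the nitrile specifier NSP5 and the sulfate-reducing enzymes APR1 and APR3 were lower at unadjusted p under 0.05, at -0.42 to -1.78. EIL3 (SLIM1), the regulator of the response, was at -0.13, MYB28 at 0.23, and LSU1 at 2.74 without passing. In OXrPPR1, SDI1 had 73.9, 97.8 and 82.1 FPKM and SULTR1;2 52.4, 57.8 and 42.7 FPKM.

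**Figure D4:**
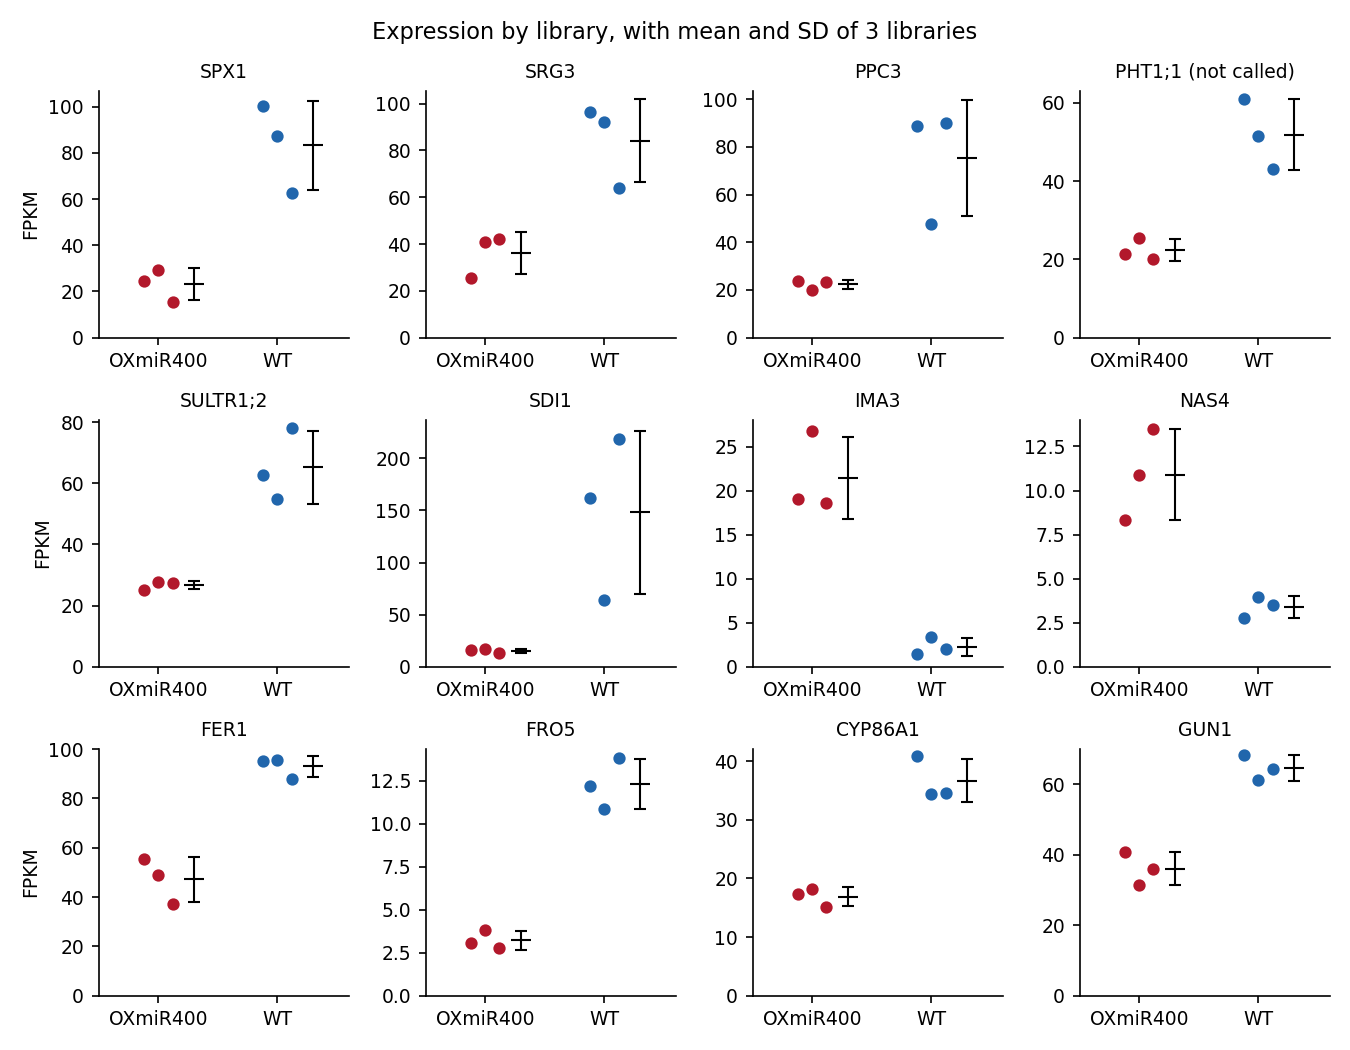
FPKM of 12 genes in each of the 3 OXmiR400 (red, left) and 3 WT (blue, right) libraries, with the mean and SD of the 3 values beside the points. No gene shown has overlapping libraries; IMA3 and NAS4 were higher in OXmiR400 and the others lower, and PHT1;1 alone was not called.

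Genes of the iron deficiency list lay on both sides of 0. The list joins genes of iron signalling and uptake with ferritins and vacuolar iron importers, so its higher and lower members need not oppose each other. Of 32 tested members of the iron deficiency list, 11 were higher and 7 lower at unadjusted p under 0.05, and 3 were called higher and 1 lower. The higher members included the IRON MAN peptide genes, which report iron shortage in the shoot, and genes that their pathway turns on. IMA3 (AT2G30766) had 19.0, 26.8 and 18.6 FPKM in OXmiR400, against 1.44, 3.39 and 1.97 FPKM in WT (log2 fold change 2.81 ± 0.30, SE, adjusted p = 0.0116 in limma). IMA2 (AT1G47395) had 21.6, 31.4 and 30.6 FPKM in OXmiR400 and 2.63, 5.09 and 2.54 FPKM in WT, and IMA1 9.46, 13.5 and 14.1 FPKM against 2.05, 3.22 and 2.37 FPKM without being called (adjusted p = 0.0688 in limma). NAS4 (AT1G56430), which makes the metal chelator nicotianamine, had 8.32, 10.9 and 13.5 FPKM in OXmiR400 and 2.74, 3.96 and 3.50 FPKM in WT. All 4 were separated in every library. IMA3 overlaps AT2G30760 on the other strand, which was also called higher, at 1.12, and the handling of strand is not given in the sources used here, so reads of that pair cannot be told apart.

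The regulators PYE, BTS, BHLH38 and BHLH100, the phloem iron carrier OPT3, the reductase FRO3 and CGLD27 were higher at unadjusted p under 0.05, by 0.57 to 1.46. Of the root uptake genes, IRT1 was at 0.19, FIT, which drives it, at -0.49, F6'H1 at -0.22 and NAS1 and NAS2 at 0.12 and -0.49, and FRO2, MYB72, CYP82C4 and S8H lay under the filter. These groupings were made after the values were seen. On the lower side, FER1 (AT5G01600), the main leaf ferritin, had 55.3, 48.9 and 37.1 FPKM in OXmiR400, against 95.3, 95.5 and 88.0 FPKM in WT, and fell by 0.98 ± 0.17 (log2, SE; adjusted p = 0.0391 in limma). FER3 and FER4 were at -0.57 and -0.90 and not called, and so were the vacuolar importers VTL1 and VTL5 and the xylem citrate carrier FRD3. The iron-sulfur protein gene NEET (AT5G51720), a called gene outside the list, had 9.54, 5.97 and 5.62 FPKM in OXmiR400 and 32.6, 17.8 and 24.4 FPKM in WT (log2 fold change -1.68 ± 0.26, SE, adjusted p = 0.0332 in limma). The G-box (CACGTG), bound by bHLH and bZIP factors, was found in 6 of the 11 higher iron members (54.5%) and 9 of all 32 (28.1%), against 7.88% of all promoters. In OXrPPR1, IMA3 had 11.03, 19.99 and 8.92 FPKM and FER1 96.0, 76.5 and 65.8 FPKM.

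Among copper genes, FRO5 (AT5G23990), a surface reductase of the copper uptake system, had 3.09, 3.84 and 2.77 FPKM in OXmiR400, against 12.2, 10.9 and 13.8 FPKM in WT, and fell by 1.65 ± 0.26 (log2, SE; adjusted p = 0.0274 in limma). Its neighbour FRO4, COPT2, which imports copper, ZIP2 and the iron superoxide dismutase FSD1 were lower at unadjusted p under 0.05, at -0.66 to -0.90. COPT1 and the plastocyanin PETE2 were higher, at 0.44 and 0.37, and the copper regulator SPL7 was at -0.17. None of 29 zinc and cadmium transport genes was called, with 8 lower and 2 higher. CAX1, a vacuolar exchanger of calcium, had 65.2, 56.6 and 58.4 FPKM in OXmiR400 and 34.4, 32.7 and 41.7 FPKM in WT (adjusted p = 0.0600 in limma). Its relatives CAX3 and CAX4 had log2 fold changes of -0.58 and -0.39, and phytochelatin synthase PCS1 was at -0.13. Nitrogen genes went both ways: the nitrate reductases NIA1 and NIA2 and ASN2 were higher, at 1.28, 0.72 and 1.00, and the ammonium carriers AMT1;2 and AMT1;3 and NRT1.5, which loads nitrate into the xylem, were lower, at -1.17, -0.52 and -1.06, with none called.

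Genes that build the barriers of the root endodermis lay lower. The Casparian strip and suberin lamellae seal the cell wall of that layer, and suberin is an aliphatic polyester. Of 25 tested members, 15 were lower and none higher at unadjusted p under 0.05, with a median of -0.54. CYP86A1 (AT5G58860), the fatty acid hydroxylase that makes root suberin monomers, had 17.3, 18.2 and 15.1 FPKM in OXmiR400, against 40.9, 34.5 and 34.5 FPKM in WT, and fell by 1.07 ± 0.16 (log2, SE; adjusted p = 0.0274 in limma). The other lower members span the pathway: KCS2 elongates the chains, FAR4 and FAR5 make alcohols, GPAT5, ASFT and FACT join the units, ABCG6 exports them and MYB92 and MYB93 are regulators, at -0.49 to -0.85. CASP1 and CASP2, which scaffold the strip, were at -0.84 and -0.76, while CASP4, CASP5 and ESB1 were at 0.19, 0.11 and 0.16. GSO1, a receptor of the barrier, was at -0.49. Of the list, 4 genes are also among the 15 root markers, whose summed level was lower in OXmiR400.

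Class III peroxidases, secreted enzymes of wall cross-linking, numbered 62, of which 18 were lower (29.0%) and 4 higher at unadjusted p under 0.05. The lower count was 10 without OXmiR400 replicate 3 or without WT replicate 3. AT3G32980 fell, with 115, 124 and 107 FPKM in OXmiR400, against 227, 172 and 243 FPKM in WT (log2 fold change -0.88 ± 0.15, SE, adjusted p = 0.0386 in limma). Other wall genes among the calls were EXT3, an extensin that forms the wall's protein network, at 277, 247 and 228 FPKM in OXmiR400 and 452, 483 and 747 FPKM in WT, and GRP5, a glycine-rich wall protein, at 39.9, 53.2 and 44.2 FPKM against 16.1, 12.9 and 6.54 FPKM. EXT3 fell and GRP5 rose, both without overlap. Expansins and xyloglucan enzymes, which loosen walls, had 7 higher and 5 lower of 44, none called: XTH7, XTH15, XTH16 and EXPA6 were at 0.49 to 1.07 and XTH14, XTH17 and XTH20 at -0.64 to -1.26.

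**Figure D5:**
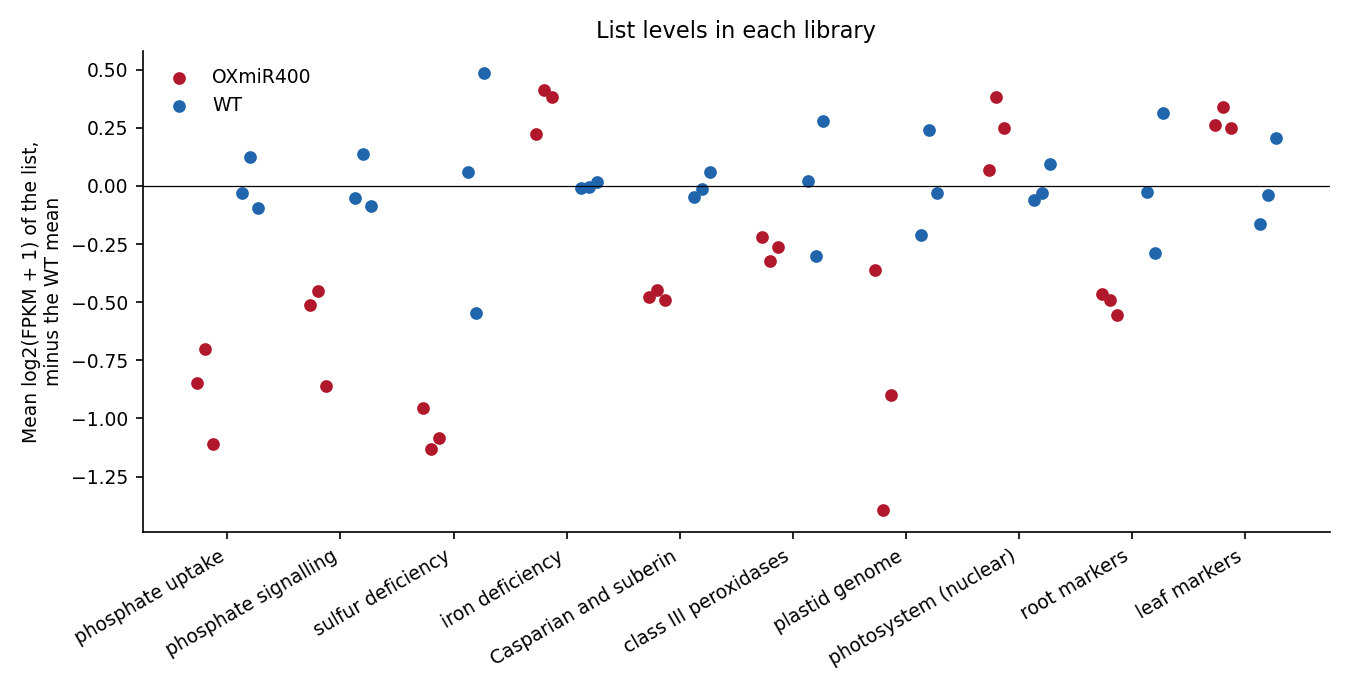
Mean log2(FPKM + 1) of each gene list in each library, minus the WT mean, with OXmiR400 (red) left of WT (blue) in each pair. The phosphate, sulfur, and Casparian and suberin lists lie lower in all 3 OXmiR400 libraries and the iron list higher, and the root markers lie lower; the class III peroxidases and the nuclear photosystem genes overlap between the genotypes.

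Among the called genes, 14 encode detoxification and redox enzymes, of which 13 fell. The class was assigned to called genes only, so its share of all tested genes is not known, and 71 of all 114 calls fell. Glutathione S-transferases, which couple glutathione to toxic compounds, had 16 of 48 lower (33.3%) and none higher. Of the 16, 11 were among the 25 tau-class members, including the 3 that were called: GSTU1, GSTU22 and GSTU24. GSTU1 (AT2G29490) had 17.5, 16.2 and 16.4 FPKM in OXmiR400, against 30.8, 35.5 and 38.1 FPKM in WT (adjusted p = 0.0116 in limma). The phi class had 1 lower of 10 and the zeta class 2 of 2, and the median log2 fold change was -0.31 in both the tau and the phi class, so the counts do not set the tau class apart. The berberine-bridge oxidase genes AT4G20820 and AT5G44380, the aldehyde oxidase AO1, the alkenal reductase AER, which clears reactive aldehydes, an alcohol dehydrogenase (AT5G42250) and DJ1A, a DJ-1 family protein of oxidative stress tolerance, fell by 0.71 to 1.35 on the log2 scale. AT4G20820 had 5.67, 7.68 and 8.87 FPKM in OXmiR400, against 19.7, 19.7 and 21.1 FPKM in WT.

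Glycosyltransferases had 18 of 99 lower and 3 higher. UGT72E2, which glucosylates lignin precursors, fell by 0.97 ± 0.15 on the log2 scale, with 23.3, 23.8 and 21.3 FPKM in OXmiR400 and 36.2, 46.4 and 56.2 FPKM in WT (adjusted p = 0.0263 in limma). Lower members were 3 of 4 in the UGT72 and 5 of 7 in the UGT73 group, which were picked out after their values were seen, against 2 of 8 in UGT71, 1 of 4 in UGT74, none of 4 in UGT85 and 4 of 57 in the groups not split further. Cytochromes P450 had 28 of 155 lower (18.1%) and 6 higher, of which 7 lower belonged to the 19 tested CYP705A genes, a group picked out after its values were seen. MATE carriers, which export small molecules, had 9 of 42 lower (21.4%) and 2 higher. Of the 42, 1 was called each way, where 0.215% of all tested genes were called higher and 0.356% lower. AT5G52450 fell and AT1G15180 rose. AT1G15180 had 19.8, 20.2 and 21.9 FPKM in OXmiR400 and 10.8, 13.4 and 12.2 FPKM in WT. Heat shock genes, by contrast, had 4 higher and 6 lower of 115, and endoplasmic reticulum stress genes 1 each of 21.

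Among chloroplast genes, nuclear photosystem genes leaned higher and plastid-encoded transcripts lower, while other nuclear lists lay near 0. The list levels of the nuclear photosystem genes overlapped between the genotypes. Nuclear genes for photosystems and their antenna had 9 of 42 higher (21.4%) and none lower at unadjusted p under 0.05, with a median of 0.20 and none called. PSBP-2 was at 1.28, LHCB2.3 at 0.81, PSAH2 at 0.62 and PSAG at 0.45. Chlorophyll synthesis genes had 5 of 29 higher, among them CHLG, GUN4 and CHLM at 0.24 to 0.35, and 1 lower, the ferrochelatase FC2 at -0.41. Calvin cycle and photorespiration genes had 2 of 31 higher and none lower, with a median of 0.05. Isoprenoid and carotenoid genes had 3 of 34 higher and 1 lower, with a median of -0.01. Of 89 plastid-encoded transcripts, 71 were lower (79.8%) and none higher, with a median of -0.88 and 1 called. The lower count was 46 without OXmiR400 replicate 2 and 47 without WT replicate 2. OXmiR400 replicate 1 lay highest of its genotype, with a mean log2 level of 4.11 over the list beside 3.07 and 3.57, against 4.26, 4.71 and 4.44 in WT and 3.12, 2.81 and 3.41 in OXrPPR1. The mitochondrial genome had 23 of 56 lower and 1 higher. The libraries were made with an mRNA kit, and how far it captures organelle transcripts is not given in the sources used here. A difference between libraries in that capture cannot be told apart from a difference in transcript level.

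Of called nuclear genes for plastids, NYC1, the chlorophyll b reductase of leaf senescence, fell, with 44.7, 35.0 and 39.1 FPKM in OXmiR400 and 79.8, 80.7 and 68.4 FPKM in WT (log2 fold change -0.93 ± 0.14, SE, adjusted p = 0.0248 in limma). EMB1303, needed for chloroplast formation, rose, with 269, 256.3 and 256.1 FPKM in OXmiR400 and 163, 162 and 152 FPKM in WT (0.71 ± 0.11, SE, adjusted p = 0.0252 in limma). ATH13, a plastid kinase of the ABC1 family, rose by 0.67 and the plastid transcription protein gene AT2G27402 by 1.1 on the log2 scale. GGPS1, which makes the precursor of chlorophyll and carotenoid side chains, was called lower, and was listed at 0 in all 3 OXmiR400 libraries and at 24.8, 12.6 and 7.0 FPKM in WT. It overlaps AT4G36808 on the other strand, and a value of 0 can be a failed estimate.

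Carbohydrate genes leaned lower. Starch and sucrose genes had 13 of 43 lower (30.2%) and 1 higher, with none called. The lower ones included the sucrose phosphate synthases SPS1F, SPS2F and SPS4F, at -0.56, -0.91 and -0.54, SUS3, the wall invertase cwINV1 and GWD1, which starts starch breakdown, and GBSS1, which makes amylose, was the 1 higher, at 0.70. Dark and sugar starvation genes had 7 lower and 1 higher of 32, of which DIN2 is shared with the sulfur list. The proteasome, which degrades ubiquitin-tagged proteins, had 11 of 42 subunit and related genes lower (26.2%) and none higher, by 0.21 to 0.62 and with none called. RPN1A had 32.9, 31.4 and 32.2 FPKM in OXmiR400 and 44.8, 41.3 and 40.2 FPKM in WT, which did not overlap (adjusted p = 0.0891 in limma).

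Some called genes take part in protein turnover, and are described as single genes: the lists of 410 F-box and RING proteins, 366 proteases and inhibitors and 42 proteasome genes held 1 call together. AT5G37490, annotated as an ARM repeat protein, rose by 2.5 ± 0.28 on the log2 scale, with 11.2, 11.6 and 13.7 FPKM in OXmiR400 and 2.23, 0.956 and 0.959 FPKM in WT (adjusted p = 0.0116 in limma). UBC28, a ubiquitin-conjugating enzyme, rose to 706, 671 and 629 FPKM in OXmiR400, against 363, 397 and 400 FPKM in WT. UBC12 fell, to 0.101, 0.110 and 0.0874 FPKM in OXmiR400, against 1.51, 1.75 and 1.89 FPKM in WT, and MC6, a metacaspase, and BETA-VPE, a vacuolar processing protease, fell by 1.34 and 0.78 on the log2 scale.

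The circadian clock list had 9 higher and 7 lower of 35, with none called and a median of 0.08. Members known to peak in the morning or day (10 tested) had 5 higher and none lower, and those known to peak toward evening (9 tested) had 6 lower and none higher; this division was made after the values were seen. CCA1, the morning regulator, had 10.9, 11.5 and 9.94 FPKM in OXmiR400 and 6.17, 7.14 and 4.66 FPKM in WT (adjusted p = 0.0546 in limma). FKF1, an evening photoreceptor, had 12.5, 10.2 and 10.7 FPKM in OXmiR400 and 17.1, 20.1 and 20.3 FPKM in WT (adjusted p = 0.0555 in limma). LHY, LNK2, LNK3 and RVE4 were at 0.45 to 0.95, and TOC1, GI, ELF3, PRR5 and PRR3 at -0.38 to -0.53. In each of these the genotypes were separated. The evening element AAAATATCT was in 25.7% of the promoters of the list, against 2.82% of all promoters. The time of day of harvest is not given in the sources used here.

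Of the called genes, 4 encode transcription factors and are described one by one. Over the factor lists, 2 of 62 bZIP and 1 of 54 WRKY genes were called, all 3 lower. None of 59 NAC, 164 MYB, 96 bHLH and 61 AP2/ERF genes was called. Of all genes tested, 0.215% were called higher and 0.356% lower. At unadjusted p under 0.05, bZIP genes had 5 higher and 4 lower, and WRKY genes 5 higher and 9 lower. TGA9 and TGA10, bZIP factors known from anther development, fell by 0.69 and 0.95 on the log2 scale, with TGA10 at 4.52, 4.40 and 4.11 FPKM in OXmiR400 and 9.39, 8.43 and 10.2 FPKM in WT (adjusted p = 0.0222 in limma). WRKY65 had 36.6, 35.7 and 35.5 FPKM in OXmiR400 and 55.4, 52.4 and 52.9 FPKM in WT, and the zinc finger gene AT2G28710 fell by 1.17. NAC genes had 6 higher and 8 lower of 59, with NAC044 and NAC085, which act in DNA damage arrest, at 1.58 and 1.05 and not called (adjusted p = 0.0594 and 0.0541 in limma). The mitotic cyclin CYCB1;1 was at 1.05 and not called (adjusted p = 0.0688 in limma), and the other 5 markers of dividing cells were at -0.08 to 0.27. GASA1, a gibberellin-regulated peptide, rose to 828, 825 and 663 FPKM in OXmiR400, against 257, 374 and 356 FPKM in WT (log2 fold change 1.24 ± 0.17, SE, adjusted p = 0.0209 in limma). Auxin-regulated SAUR genes were called both ways, AT1G72430 at 1.12 and AT5G50760 at -0.93.

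Of 7 called genes for lipid and isoprenoid enzymes and lipid transfer, a class assigned to called genes only, 3 rose and 4 fell. Those with the firmest calls rose. AT3G02620, a stearoyl-ACP desaturase, which makes monounsaturated fatty acids, had 8.49, 7.85 and 6.28 FPKM in OXmiR400 and 1.02, 1.61 and 2.002 FPKM in WT. AT3G23510, of the cyclopropane fatty acid synthase family, had 5.68, 4.68 and 4.10 FPKM in OXmiR400 and 0.674, 0.891 and 1.02 FPKM in WT. The adjusted p-values were 0.00671 and 0.00568 in limma, and both calls held without any 1 library of the 2 genotypes. MFP2, of peroxisomal fatty acid breakdown, fell by 0.63. Late embryogenesis abundant genes had 2 called, both higher (AT3G53040 and UNE15), within a list of 53 that had 4 higher and 8 lower. Defence proteins were called both ways: a germin-like cupin gene (AT5G39130), a mannose-binding lectin gene (AT5G35940), a defensin-like gene (AT4G22212) and AT1G50060 rose by 0.92 to 1.40, and the chitinase CHIA and HIR2, a membrane protein of immune responses, fell by 0.72 and 1.00. Salicylic acid defence and ethylene genes had none of 21 and 25 at unadjusted p under 0.05.

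Noncoding transcripts leaned higher. Of 707 noncoding RNAs, 90 were higher (12.7%) and 29 lower (4.10%) at unadjusted p under 0.05, with a median of 0.13. Among 19034 protein-coding genes the shares were 6.499% and 8.97%. The 707 comprise 494 long noncoding, 10 antisense, 51 small nucleolar and 104 other noncoding RNAs and 48 microRNA precursors, MIR400 among them. The long noncoding RNAs alone had 51 higher (10.3%) and 23 lower (4.66%), and none of the 10 antisense RNAs passed. Among the called were AT1G07373, with 2.89, 2.63 and 3.04 FPKM in OXmiR400 and 0.0605, 0.380 and 0.101 FPKM in WT, and AT1G04647, with 0.0265, 0.0435 and 0 FPKM in OXmiR400 and 1.09, 2.80 and 2.31 FPKM in WT. AT1G04647 lies next to TGA9 among tested genes, and both fell. The separate list of microRNA precursors overlaps the 707. Of its 50 tested members, 7 were higher and 2 lower, and MIR400 was the only one called. MIR157c, at 9.45, 8.51 and 7.75 FPKM in OXmiR400 and 4.28, 2.28 and 1.45 FPKM in WT, came next (adjusted p = 0.0836 in limma). Of the 114 called genes, 29 overlap another annotated gene, and reads of such pairs may be shared. Among those named in the text these are SRG3, FER1, IMA3, EXT3, AO1, OCT1, MRD1, AT3G05170, AT4G12545, AT5G52450, HIR2 and GGPS1. Reads of near-identical copies, as among IMA, tau-class and SAUR genes, may also be divided between them.

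The remaining falls among the largest 12 were in genes without a shared list. MRD1 (AT1G53480), named for its response to methionine accumulation, had 0.481, 0.501 and 0.929 FPKM in OXmiR400 and 16.1, 5.90 and 4.41 FPKM in WT. AT3G05170, a phosphoglycerate mutase family gene, had 0.454, 0.382 and 0.0441 FPKM in OXmiR400 and 5.27, 3.71 and 6.00 FPKM in WT. OCT1, a carnitine transporter gene, had 1.30, 1.22 and 1.24 FPKM in OXmiR400 and 5.67, 7.44 and 6.00 FPKM in WT. AT2G07727, a nuclear copy of mitochondrial cytochrome b, fell by 1.38 together with its neighbour AT2G07725 (1.18), and such copies can take reads of the mitochondrial genome. Among the largest rises were AT2G18190, a nucleoside triphosphate hydrolase, at 5.77, 4.26 and 8.54 FPKM in OXmiR400 and 0.592, 0.493 and 0.351 FPKM in WT, and AT4G12545, a lipid transfer protein gene, at 88.0, 81.7 and 81.6 FPKM against 32.2, 16.1 and 41.5 FPKM. AT4G05380, of the same hydrolase family as AT2G18190, rose by 1.63 and AT1G52315 by 1.41 on the log2 scale.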

How the data were processed

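RNA of seedlings was extracted with TRIzol and made into libraries with a SMARTer mRNA kit, per the labels' protocols. The submitters' processing notes name the builds GRCm38 and mm10, which are mouse builds, yet the genes are from Arabidopsis: TAIR10.1 (RefSeq) held 26513 of the 26973 identifiers, 26504 of them with the same start and end. Neither the aligner and counter nor the use of strand is given in the sources used here. The authors' deposited values are taken as FPKM; no label names the unit, and it was inferred because values times exon length sum to 0.993 to 0.998 M in each library. Low values fell on steps of which 4 make a unit in 99.4% to 99.5% of cases (tolerance 0.05 of a step) but on whole units in 41.6% to 46.3%, so no count model was used. The 3 deposited tables hold the same values, and 1 was used.

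Values were put on the log2(FPKM + 1) scale, which understates changes of low genes, and fitted in limma 3.58.1 (R 4.3.3) over all 9 libraries with trended, robust variance, contrast OXmiR400 minus WT and Benjamini-Hochberg adjustment over 19955 genes. In 3 simulated sets of this comparison, each with at least 19666 genes tested, the fit called 231 of 300 2-fold and 286 of 300 4-fold changes, with 22 false calls. Changes were simulated only in genes averaging 5 FPKM or more, so recovery at lower levels was not tested. Each gene was drawn independently, so deviations shared by many genes of a library were not simulated. Recovery and false calls in the real libraries may therefore differ. Gene lists came from symbols and product names. The members and lists were chosen with earlier results of these data known. Named genes were the 12 largest rises and falls among called genes with separated libraries, the called members of each list and the members nearest to a call; further called genes and the CYP705A and clock divisions were named after their values were seen. Alternatives were another pseudocount, filters, scalings, fits with 6 libraries, a replicate block and each library left out. Some items are not reported here.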

Additional observations from a re-analysis of the deposited data

How the results depend on the processing

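The count of 114 called genes was 66 without the expression filter, 216 with only the 6 libraries of OXmiR400 and WT, and ranged from 8 to 194 when 1 library was left out. Other settings kept it within 1.5 times: 115 with a pseudocount of 0.1, 91 with a filter of 5 FPKM, 124 with median centring, 127 with quantile scaling and 86 without the variance trend. With a replicate block it was 92, of which 64 were shared. Same-numbered OXmiR400 and WT libraries deviated together at r = 0.006, 0.044 and 0.052. For OXmiR400 and OXrPPR1 the values were 0.093, 0.133 and 0.045, and for OXrPPR1 and WT -0.246, 0.120 and 0.077. Such values cannot show whether libraries were grown or handled as matched sets. The median log2 fold change of the phosphate uptake list was -0.59 without the filter. That of the iron list was 0.022 without it and 0.57 with a filter of 5 FPKM. For Casparian strip and suberin genes the median was -0.62 with a pseudocount of 0.1 and ranged from -0.57 to -0.49 with 1 library left out. In the same fits the number of plastid transcripts lower at unadjusted p under 0.05 ranged from 46 to 78, and that of class III peroxidases from 10 to 22. The cause of these shifts was not tested, beyond the change in the genes or samples entered. Of 1139 medians of the other 67 lists under all settings 1100 moved by less than the spread between replicates and 39 by more. Depth is known only from steps in the deposited values, so counting error did not enter the tests.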
